A study of Homo sapiens with 9 samples.

Results

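CAMK2B and 7 further genes of the calcium-calmodulin-dependent kinase cascade (CAMK2A, CAMK2D, CAMK2G, CAMK1, CAMK1D, CAMK4 and CAMKK2) were followed across RNA-seq libraries of 3 mammary epithelial cell lines. These 8 genes were taken by symbol from the 60199 rows of the raw count table. They were selected on the count difference of CAMK2B between MC26 and CT, which was already known, so every value of the 8 genes in MC26 against the parental cells, and every difference of CAMK2B between lines, is given as a description, without a p-value. Counts of kinase genes past a threshold that rest on these values are descriptions too.

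MCF10A is an established, nonmalignant human mammary epithelial cell line. CT denotes the untreated MCF10A cells, which were not transformed. MC26 denotes unsorted MCF10A cells transformed under long exposure to bone morphogenetic protein 2 (BMP2) and interleukin 6 (IL6). M1B26 denotes MCF10A cells that were first sorted on BMPR1B, a BMP receptor, then exposed to the same factors and expanded from 3 clones picked in soft agar. Both transformed lines were kept in medium with BMP2 and IL6 whereas CT was grown without them, so that line history and current exposure cannot be told apart. Each line was sequenced as 3 numbered replicates, and the titles do not say whether these were independent cultures. The p-values therefore measure the spread between replicates of 1 line.

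Calcium entering the cytosol binds calmodulin, and calcium-calmodulin then switches on a family of serine/threonine kinases. The CaMKII holoenzyme is assembled from subunits encoded by CAMK2A, CAMK2B, CAMK2D and CAMK2G, and can hold its activity by autophosphorylation after calcium has fallen. CAMK2A and CAMK2B are best known from neurons, while CAMK2D and CAMK2G are expressed in most tissues, epithelia included. The CaMKI enzymes (CAMK1, CAMK1D) and the largely nuclear kinase CaMKIV (CAMK4) act as single subunits, and are fully activated only when an upstream kinase such as CaMKK2 phosphorylates them.

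Library totals ran from 21425118 to 80076597 counts, the lowest in CT replicate 2. Levels are given as CPM (counts per 1000000 counts of a library), scaled by TMM factors of 0.968 to 1.07. All 10 epithelial markers looked up, among them KRT5, TP63 and EPCAM, had more than 3 counts in every library. Detection does not mean equal levels. In CT, MC26 and M1B26 mean EPCAM was 70.4, 14.8 and 72.1 CPM and mean KRT14 was 54.1, 1097 and 548 CPM. Mean KRT5 moved less, with 6586, 6264 and 4924 CPM. Of 8 neuronal markers, 5 (SNAP25, RBFOX3, STMN2, GAP43 and NEFL) had at most 1 count in any library. The other 3 (SYN1, SYP and TUBB3) had more than 3 counts in every library. SYN1 and SYP were at most 0.572 and 0.597 CPM, whereas TUBB3 was higher in both transformed lines. Its log2 fold changes (edgeR) against CT were 1.84 in MC26 (SE 0.19) and 1.37 in M1B26 (SE 0.18). The summed neuronal list still ran from 62.8 to 95.6 CPM in CT, 219 to 362 in MC26 and 185 to 220 in M1B26, and nearly all of it was TUBB3. Library preparation batches are not stated in the labels, and a batch that followed the line cannot be told apart from it. These are bulk libraries, in which fewer cells expressing a gene and less RNA per cell cannot be told apart.

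CAMK2B was the CaMKII gene that differed most between the lines and CAMK2G the one that differed least, so the sequences upstream of their start sites are shown. CAMK2B lies on the minus strand of GRCh38 at chr7:44210019-44334577, and CAMK2G on the minus strand at chr10:73812501-73874591 (GENCODE v44). Each stretch is the longest unbroken part of the 250 bases before the RefSeq start (GRCh38.p14) that lies outside annotated exons, written from 5′ to 3′ on the minus strand. They cover chr7:44325657-44325820 for CAMK2B and chr10:73874592-73874805 for CAMK2G, and the RefSeq start of CAMK2B lies inside the longer GENCODE gene. Capitals mark GGCGCC, the GC-rich motif bound by SMAD proteins downstream of BMP receptors.
CAMK2B: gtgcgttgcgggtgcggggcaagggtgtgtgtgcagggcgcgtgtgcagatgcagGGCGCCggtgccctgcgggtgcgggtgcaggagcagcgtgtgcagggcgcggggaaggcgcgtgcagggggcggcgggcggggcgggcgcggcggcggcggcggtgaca
CAMK2G: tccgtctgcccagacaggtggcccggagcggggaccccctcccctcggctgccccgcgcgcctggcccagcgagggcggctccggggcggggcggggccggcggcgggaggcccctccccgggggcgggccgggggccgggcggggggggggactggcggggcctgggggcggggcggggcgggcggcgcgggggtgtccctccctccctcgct

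Over the whole 250 bases, the CAMK2B window held 2 GGCGCC matches and 37 CpG dinucleotides, and was 78.4% G or C. At least as many CpG were found in 4.0% of all 35116 RefSeq promoters, whose median was 11. GGCGCC, searched on both strands, occurred in 16.4% of promoters, and 3.08% held 2 or more. These shares are over all promoters and were not matched to the GC content of the CAMK2B window. The CAMK2G window held 32 CpG and no GGCGCC. Of the other 6 kinase genes, CAMK2D had 1 match and the rest none. The STAT-type motif TTCNNNGAA (6.57% of promoters) and the CREB motif TGACGTCA (1.65%) were in none of the kinase windows. TGACG, which every TGACGTCA also contains, was found in CAMK2A alone, against 21.2% of all promoters. A match describes the letters of the window and not a bound site.

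CAMK2B was well above the limit of detection in the parental cells, close to it in MC26 and at an intermediate level in M1B26. In CT its levels were 25.4, 15.9 and 18.8 CPM in replicates 1 to 3. In MC26 they were 0.149, 0.392 and 0.494 CPM, which rest on 6, 15 and 21 counts. In M1B26 they were 3.31, 1.70 and 5.13 CPM. The 3 lines did not overlap at any point: each M1B26 library lay below the lowest CT library and above the highest MC26 library. The means were 20.06 ± 4.87, 0.345 ± 0.177 and 3.38 ± 1.72 CPM in CT, MC26 and M1B26 (SD, n = 3 each), and the CT mean was 58.1 times that of MC26.

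The log2 fold change of CAMK2B in MC26 against CT was -5.85 (SE 0.44). In M1B26 against CT, which shares the CT libraries with the comparison that chose the gene, it was -2.56 (SE 0.33), with a lower level in 3 of 3 M1B26 libraries. The direct difference between the transformed lines was 3.29 (SE 0.47), higher in M1B26. Over 16 alternative fits, which included leaving out each library in turn, the log2 fold change ran from -6.22 to -5.49 in MC26 against CT and from -3.00 to -2.24 in M1B26 against CT.

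**Figure D1:**
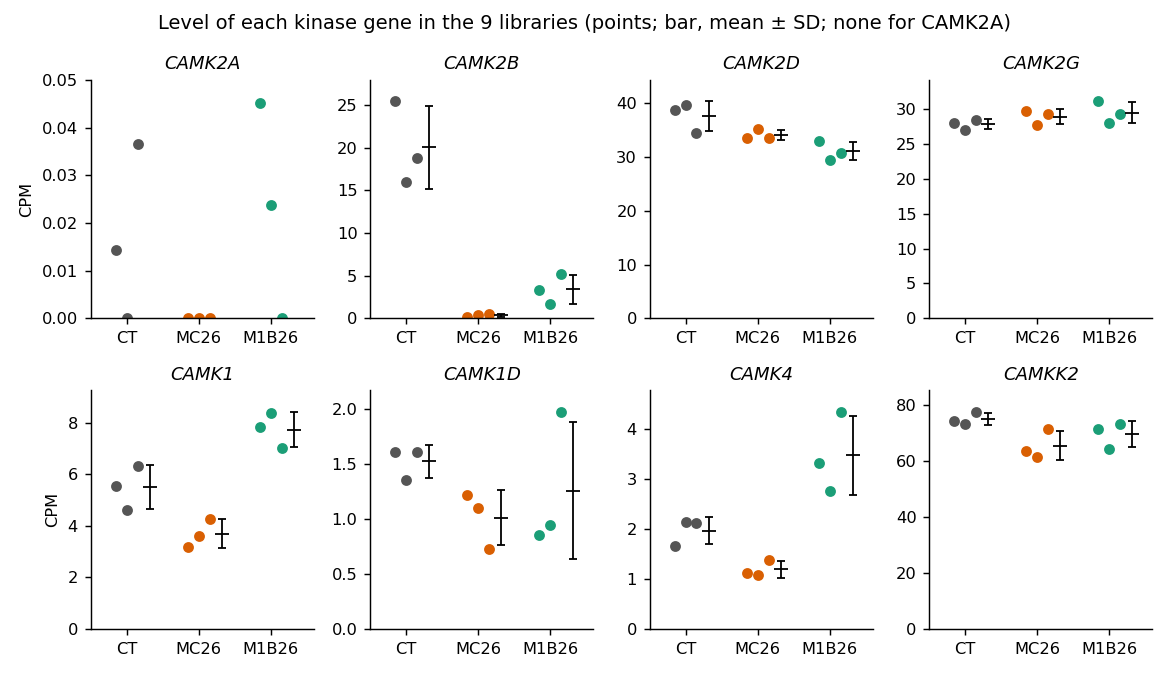
Level of each kinase gene in CPM (linear axis from 0, a separate scale for each gene) in the 3 libraries of CT, MC26 and M1B26. Points are libraries, and the bar beside them is the mean with its SD, left out for CAMK2A. CAMK2B lay at 15.9 to 25.4 CPM in CT, 0.149 to 0.494 in MC26 and 1.70 to 5.13 in M1B26, while CAMK2G stayed between 27.0 and 31.2 CPM in all 9 libraries.

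Part of the CAMK2B exon sequence is shared with YKT6, which encodes a SNARE protein of vesicle fusion and lies on the opposite strand. The shared stretch is 2325 bases, or 20.05% of the annotated exonic length of CAMK2B, and the strand setting of the counting is not given in the sources used here, so reads there could have been assigned to either gene or to none. YKT6 stood at 107.9, 106.6 and 106.9 CPM in CT, 150.7, 135.2 and 124.4 in MC26 and 113.7, 108.4 and 106.6 in M1B26. It rose in MC26 against CT by 0.35 (SE 0.07, edgeR adjusted p = 0.00347, from the quasi-likelihood test with Benjamini-Hochberg adjustment over all genes tested), and its log2 fold change in M1B26 against CT was 0.03 (SE 0.07, edgeR adjusted p = 0.745). The MC26 libraries had the lowest CAMK2B counts and the highest YKT6 levels. In M1B26 CAMK2B was also below CT, whereas the YKT6 libraries of M1B26 and CT overlapped. Whether reads of CAMK2B were counted for YKT6, or the reverse, was not tested.

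The other CaMKII genes spanned a far narrower range. CAMK2D (chr4:113418054-113761927, minus strand), the delta subunit, stood at 38.7, 39.7 and 34.6 CPM in CT, 33.5, 35.2 and 33.6 in MC26 and 32.96, 29.6 and 30.8 in M1B26. All M1B26 libraries lay below all CT and MC26 libraries, whereas CT and MC26 overlapped. CAMK2D fell in M1B26 against CT by 0.27 on the log2 scale (SE 0.07, edgeR adjusted p = 0.0108), a call that was lost without M1B26 replicate 2 (-0.23, adjusted p = 0.05). Against MC26 the log2 fold change was -0.13 (SE 0.07, edgeR adjusted p = 0.181), with a 95% interval from -0.28 to 0.01. For MC26 against CT it was -0.14 (SE 0.07).

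CAMK2G, the gamma subunit, stood at 28.1, 27.0 and 28.5 CPM in CT, 29.8, 27.8 and 29.3 in MC26 and 31.2, 28.1 and 29.3 in M1B26. The ranges of the lines overlapped in every pairing. The M1B26 log2 fold change against CT was 0.08 (SE 0.07, edgeR adjusted p = 0.344, 95% interval -0.05 to 0.21) and 0.03 in M1B26 against MC26 (SE 0.07, edgeR adjusted p = 0.775, 95% interval -0.11 to 0.16). For MC26 against CT it was 0.05 (SE 0.07). With total counts in place of TMM factors the sign turned in both comparisons with CT, to -0.01 for M1B26 and -0.02 for MC26. An antisense gene, CAMK2G-AS1, covers 445 bases of its exons (5.33%).

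CAMK2A (chr5:150219491-150290093, minus strand), the alpha subunit that predominates in forebrain neurons, was at or under the floor of 3 counts in every library. Its counts were 1, 0 and 3 in CT, 0 in each MC26 library, and 2, 1 and 0 in M1B26. It did not pass the filter on low counts and was not tested, and no difference between lines was detectable at this depth.

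Per kilobase of annotated exonic length, the 4 CaMKII genes together reached 7.48 ± 0.485 CPM per kb for CT, 5.68 ± 0.0546 for MC26 and 5.82 ± 0.374 for M1B26 (SD, n = 3 each). CAMK2B made up 22.95% ± 4.07 of this sum in CT, with single libraries from 19.2 to 27.3%. Its share was 0.525% ± 0.269 in MC26 and 4.95% ± 2.39 in M1B26. The CAMK2G share was correspondingly 44.7% ± 2.65 for CT, 61.05% ± 1.57 for MC26 and 60.8% ± 1.48 for M1B26, although its own per-length level moved little, from 3.34 ± 0.0904 to 3.47 ± 0.122 and 3.54 ± 0.184 CPM per kb. The CAMK2D share was 32.3% ± 2.80, 38.4% ± 1.47 and 34.2% ± 0.887 in the same order. Exonic lengths are those of all annotated transcripts merged, so the shares depend on which isoforms the cells use, which was not measured.

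**Figure D2:**
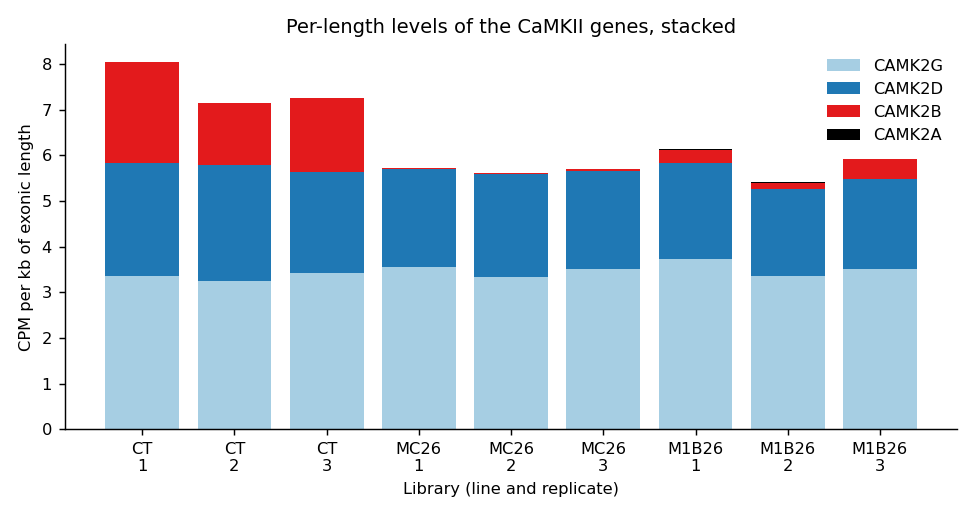
Stacked per-length levels (CPM per kb of exonic length, linear axis from 0) of CAMK2G, CAMK2D, CAMK2B and CAMK2A in each of the 9 libraries. The CAMK2B segment made up 19.2 to 27.3% of the bar in CT and 2.72 to 7.47% in M1B26, and was under 0.75% in each MC26 library.

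CAMK1 and CAMK4 had another order, with the lowest levels in MC26 and the highest in M1B26. CAMK1 (chr3:9757347-9769992, minus strand), which encodes the cytosolic kinase CaMKI alpha, stood at 5.54, 4.63 and 6.32 CPM in CT, 3.18, 3.61 and 4.28 in MC26 and 7.82, 8.35 and 6.9995 in M1B26. None of the lines overlapped. CAMK1 rose in M1B26 against CT by 0.47 (SE 0.14, edgeR adjusted p = 0.0191) and was higher in M1B26 than in MC26 by 1.06 (SE 0.15, edgeR adjusted p = 0.000355), in 3 of 3 libraries each time. The log2 fold change in MC26 against CT was -0.59 (SE 0.15). The call in M1B26 against CT was lost without CT replicate 1 (adjusted p = 0.06), CT replicate 2 (0.0564), M1B26 replicate 1 (0.0506) or M1B26 replicate 2 (0.0706), with log2 fold changes of 0.37 to 0.47.

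Reads of CAMK1 are uncertain for another reason, since 2175 bases, 80.11% of its exonic length, also lie in exons of OGG1 on the opposite strand. OGG1, a DNA glycosylase that removes oxidised guanine, stood at 14.4 ± 2.28 CPM for CT, 18.2 ± 1.84 for MC26 and 20.2 ± 2.19 for M1B26 (SD, n = 3 each). Its log2 fold change was 0.32 in MC26 against CT (SE 0.13, edgeR adjusted p = 0.0656), 0.47 in M1B26 against CT (SE 0.13, edgeR adjusted p = 0.00997) and 0.15 in M1B26 against MC26 (SE 0.13, edgeR adjusted p = 0.378). The pair thus had the same direction in M1B26 against CT and opposite signs in MC26 against CT. Whether reads of one gene were counted for the other was not tested.

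CAMK4 (chr5:111223653-111494886, plus strand), whose product phosphorylates the transcription factor CREB, stood at 1.66, 2.14 and 2.11 CPM in CT, 1.12, 1.07 and 1.39 in MC26 and 3.31, 2.77 and 4.34 in M1B26. Again the lines did not overlap. CAMK4 rose in M1B26 against CT by 0.83 (SE 0.20, edgeR adjusted p = 0.00506) and was higher in M1B26 than in MC26 by 1.54 (SE 0.21, edgeR adjusted p = 0.000271), in 3 of 3 libraries each time. In MC26 against CT the log2 fold change was -0.71 (SE 0.21), and it was -0.63 without CT replicate 3, -0.66 without MC26 replicate 1 and -0.63 without MC26 replicate 2.

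CAMK1D (chr10:12349547-12835545, plus strand), the delta form of CaMKI, stood at 1.61, 1.35 and 1.61 CPM in CT, 1.22, 1.098 and 0.729 in MC26 and 0.857, 0.947 and 1.98 in M1B26. The third M1B26 library exceeded every other library, and the other two lay below CT. Relative to CT the M1B26 log2 fold change was -0.28 (SE 0.31, edgeR adjusted p = 0.482, 95% interval -0.88 to 0.32) and 0.33 in M1B26 against MC26 (SE 0.32, edgeR adjusted p = 0.437). Without M1B26 replicate 3 these values were -0.77, which passed the threshold (adjusted p = 0.0289), and -0.17 (adjusted p = 0.652). The difference of MC26 from CT was -0.61 (SE 0.32).

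CAMKK2 (chr12:121237675-121298308, minus strand), the kinase that activates CaMKI, CaMKIV and AMP-activated protein kinase, had the highest per-length level of the 8 genes in every line. It stood at 74.1, 73.2 and 77.4 CPM in CT, 63.6, 61.3 and 71.4 in MC26 and 71.5, 64.4 and 73.1 in M1B26. Both transformed lines lay below the CT range but overlapped each other. The M1B26 log2 fold change against CT was -0.10 (SE 0.08, edgeR adjusted p = 0.276, 95% interval -0.25 to 0.04), 0.09 in M1B26 against MC26 (SE 0.08, edgeR adjusted p = 0.364, 95% interval -0.06 to 0.24) and -0.20 in MC26 against CT (SE 0.08).

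**Figure D3:**
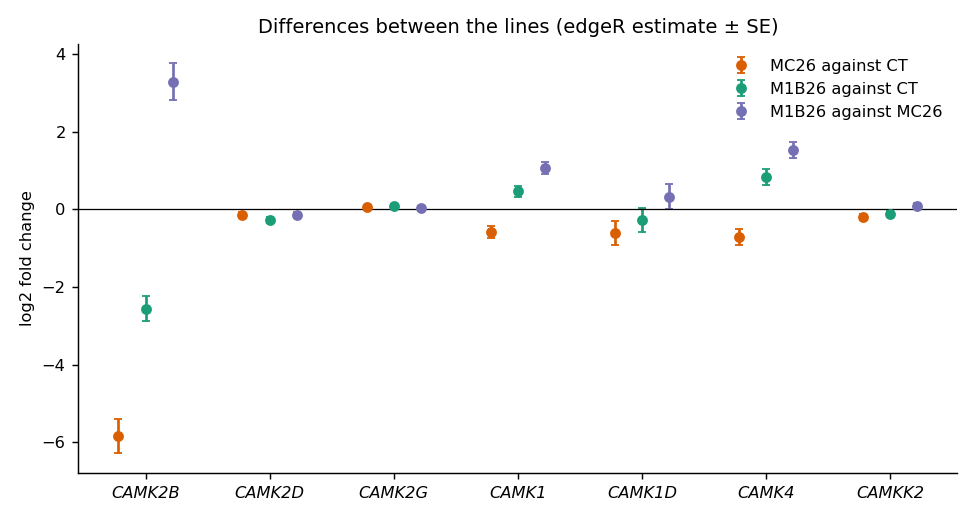
Log2 fold change with its SE (edgeR) of the 7 kinase genes that passed the filter on low counts, in the 3 comparisons. CAMK2B spans -5.85 to 3.29, CAMK1 and CAMK4 lie below 0 in MC26 against CT and above 0 in both comparisons of M1B26, and CAMK2G stays within 0.08 of 0.

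Of the 8 kinase genes, 7 were tested. In MC26 against CT 3 passed an adjusted p of 0.05 (CAMK2B, CAMK1 and CAMK4), all lower, where 38.7% of the 15717 genes tested passed (18.8% higher, 19.9% lower). The libraries of both lines did not overlap for 5 of 7, beside 50.3% of all genes. This comparison helped to choose the genes, so nothing is read from that count. In M1B26 against CT 4 of 7 passed, CAMK1 and CAMK4 higher and CAMK2B and CAMK2D lower, beside 48.9% of all genes (25.2% higher, 23.7% lower), and 5 of 7 did not overlap, beside 59% of all genes. Between the transformed lines 3 of 7 passed (CAMK2B, CAMK1 and CAMK4), all higher in M1B26, beside 39.5% of all genes (21.2% higher, 18.4% lower), and 4 of 7 did not overlap, beside 53.5%. These shares are near the background, and CAMK2B counts in each of them as a gene chosen for its levels in CT and MC26. Leaving out single libraries gave 2 to 4 calls in MC26 against CT, 2 (without M1B26 replicate 2) to 5 in M1B26 against CT, and 3 throughout between the transformed lines. The median log2 fold change of the 7 genes was -0.59, -0.10 and 0.33 in the 3 comparisons, against 0.00 for all genes in each. With total counts instead of TMM factors, the part of all called genes that was higher moved from 48.5 to 35.8% in MC26 against CT and from 51.5 to 39.6% in M1B26 against CT.

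The order of the per-length levels also differed between the lines. In CT it ran from CAMKK2 (10.4 ± 0.310 CPM per kb) over CAMK2G (3.34 ± 0.0904), CAMK2D (2.41 ± 0.175), CAMK1 (2.03 ± 0.312) and CAMK2B (1.73 ± 0.420) to CAMK1D (0.176 ± 0.0172) and CAMK4 (0.145 ± 0.0199), with SD over n = 3. The libraries of CAMK2D and CAMK1 overlapped there, as did those of CAMK1 and CAMK2B and of CAMK1D and CAMK4. In MC26 CAMK2B (0.0298 ± 0.0153 CPM per kb) stood below CAMK1D (0.117 ± 0.0294) and CAMK4 (0.0876 ± 0.0125), which were within their spread of each other. In M1B26 CAMK1 (2.85 ± 0.252 CPM per kb) stood above CAMK2D (1.99 ± 0.110), while CAMK2B (0.292 ± 0.148) and CAMK4 (0.255 ± 0.0586) lay within their spread. The place of CAMK1 in this order is uncertain in every line, since 80.11% of its exonic length also lies in OGG1 exons.

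Chromosomal neighbours of CAMK2B changed in both directions. Within 1 Mb on either side of the gene 25 other genes were tested. In MC26 against CT 8 of them were higher and 7 lower, beside 18.8 and 19.9% of all genes, with log2 fold changes from -2.10 to 1.25 and a median of 0.03. In M1B26 against CT 9 were higher and 6 lower, beside 25.2 and 23.7% of all genes, from -0.58 to 1.05, with a median of 0.01. In M1B26 against MC26 7 were higher and 5 lower, beside 21.2 and 18.4%, from -0.53 to 1.73, with a median of 0.06. The nearest tested genes on the side of lower coordinates are YKT6, POLD2 (a DNA polymerase delta subunit) and POLM (DNA polymerase mu), with log2 fold changes of 0.35, 0.27 and 1.25 in MC26 against CT. On the other side NUDCD3, DDX56 (an RNA helicase) and TMED4 had values of -0.04, 0.20 and -0.21. Farther off, LINC00957 and RASA4CP had the lowest values of the window in MC26 against CT, -2.10 and -1.68. Their values were -0.37 and -0.28 in M1B26 against CT and 1.73 and 1.40 in M1B26 against MC26, the order of CAMK2B. The annotated bodies of LINC00957 and RASA4CP overlap on opposite strands, and whether they share reads was not tested. Both passed in the comparisons with MC26 but not in M1B26 against CT. CAMK2B lay outside the range of the window in MC26 against CT, in M1B26 against CT and in M1B26 against MC26 (3.29). It was chosen for its fall in MC26 against CT, so its place outside the window is a description and not a result about the locus.

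**Figure D4:**
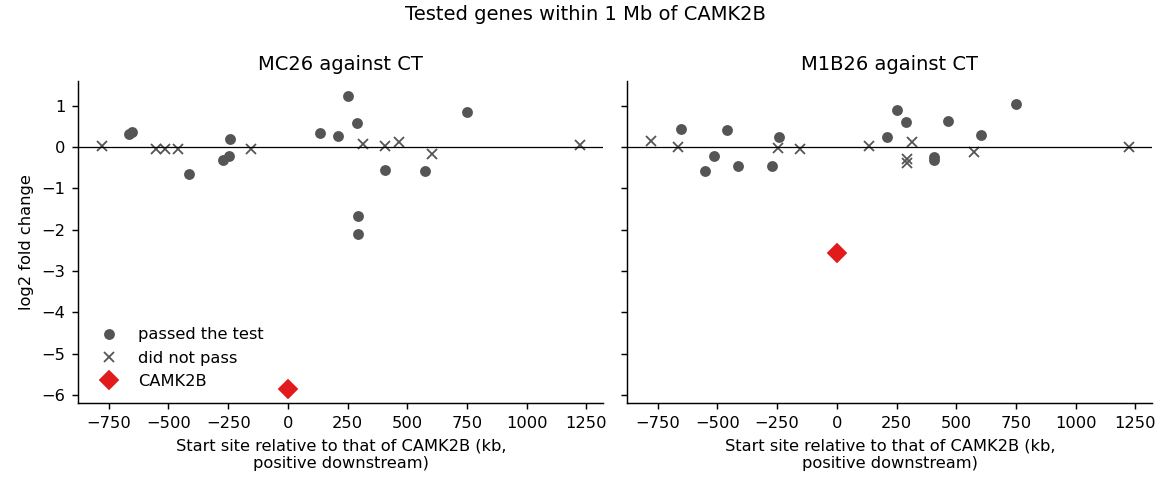
Log2 fold change of the 25 tested genes whose bodies lie within 1 Mb of CAMK2B, by the distance of their start site from that of CAMK2B (kb, positive in the direction of CAMK2B transcription), in MC26 against CT and M1B26 against CT. Filled circles passed an adjusted p of 0.05, crosses did not, and the diamond is CAMK2B, which lies at -5.85 and -2.56, below all neighbours (-2.10 and -0.58 at the lowest). CAMK2B was chosen for its fall in MC26 against CT, so its place below them is a description.

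Over the 9 libraries, the 6 genes whose log2 CPM was most like that of CAMK2B, of 12866 compared, were PLXDC2, ATP9A, SEC14L1, UBFD1, SORT1 (a sorting receptor of the Golgi and endosomes) and CLDN1 (a tight junction protein). Their Pearson correlations with CAMK2B ran from 0.988 to 0.995, over 9 libraries that fall into 3 lines, so they describe the shared order CT, M1B26, MC26. SORT1 had 45.7 ± 2.93 CPM for CT, 3.59 ± 0.362 for MC26 and 15.6 ± 5.26 for M1B26, and CLDN1 had 15.9 ± 2.73, 2.20 ± 0.844 and 6.99 ± 2.38 (SD, n = 3 each). Among the kinase genes the same measure was 0.82 for CAMKK2, 0.58 for CAMK1D, 0.54 for CAMK1, 0.51 for CAMK4, 0.43 for CAMK2D and -0.33 for CAMK2G. PECAM1, an adhesion molecule of endothelial cells, was on the marker list and is singled out here after its values were seen. Its means also had the order CT, M1B26, MC26, with 5.04 ± 0.278 CPM for CT, 0.268 ± 0.212 for MC26 and 0.898 ± 0.683 for M1B26. The MC26 and M1B26 libraries overlapped, with MC26 up to 0.494 CPM and M1B26 from 0.426 CPM. The endothelial markers VWF and CDH5 had at most 3 counts and 1 count in any library.

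The activators and partners of the kinases were read from a list of 93 other genes, of which 70 were tested. In MC26 against CT 34 of them passed (15 higher, 19 lower), or 48.6%, beside 38.7% of all genes. In M1B26 against CT 40 passed (9 higher, 31 lower), or 57.1%, beside 48.9%. In M1B26 against MC26 30 passed (9 higher, 21 lower), or 42.9%, beside 39.5%. Over all genes 18.8% were higher and 19.9% lower in MC26 against CT, 25.2 and 23.7% in M1B26 against CT, and 21.2 and 18.4% in M1B26 against MC26. The median log2 fold changes of the list were -0.04, -0.25 and -0.15, against 0.00 for all genes. The list was written with earlier results of these data known, so its direction is given as a description.

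CALM2 and CALM3 encode calmodulin itself, the calcium sensor that activates these kinases. CALM3 stood at 353, 294 and 358 CPM in CT, 427, 436 and 441 in MC26 and 516, 575 and 613 in M1B26, with no overlap between lines. Against CT it rose by 0.38 for MC26 (SE 0.09, edgeR adjusted p = 0.00631) and 0.76 for M1B26 (SE 0.09, edgeR adjusted p = 5.05e-05). CALM2 stood at 399.7 ± 38.9 CPM for CT, 389 ± 17.8 for MC26 and 492 ± 19.6 for M1B26 (SD, n = 3 each), and rose in M1B26 against CT by 0.30 (SE 0.08, edgeR adjusted p = 0.0083), a call lost with total counts (0.20, adjusted p = 0.0652). The calmodulin-like gene CALML3, named after its values were seen, stood at 0.983 ± 0.324 CPM for CT, 0.112 ± 0.0935 for MC26 and 0.312 ± 0.109 for M1B26.

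CAMK2N1, an endogenous inhibitor of CaMKII, stood at 9.003, 9.22 and 10.1 CPM in CT, 39.1, 30.1 and 14.3 in MC26 and 12.1, 15.2 and 12.0 in M1B26. Both transformed lines lay above the CT range, and MC26 replicate 3 fell within the range of M1B26. CAMK2N1 rose in MC26 against CT by 1.56 (SE 0.28, edgeR adjusted p = 0.00136) and was lower in M1B26 than in MC26, with a log2 fold change of -1.09 (SE 0.27, edgeR adjusted p = 0.00918). In M1B26 against CT its log2 fold change was 0.47 (SE 0.28, edgeR adjusted p = 0.189), and it passed without MC26 replicate 3 (0.47, adjusted p = 0.0104) and when the 6 libraries of CT and M1B26 were fitted alone (0.47, adjusted p = 0.00723). RCAN1, a regulator of the calmodulin-dependent phosphatase calcineurin, rose in M1B26 against CT by 0.55 (SE 0.07, edgeR adjusted p = 0.000109), from 17.2 ± 0.737 to 25.2 ± 1.02 CPM. Of the 11 tested inhibitor and phosphatase genes, 4 passed in MC26 against CT (3 higher, 1 lower), 5 in M1B26 against CT (2 higher, 3 lower) and 3 in M1B26 against MC26 (1 higher, 2 lower). These are 36.4, 45.5 and 27.3%, beside 38.7, 48.9 and 39.5% of all genes.

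Among the other calmodulin-regulated kinases, 5 of 14 passed in MC26 against CT (2 higher, 3 lower), 8 in M1B26 against CT (2 higher, 6 lower) and 2 in M1B26 against MC26 (both lower). These are 35.7, 57.1 and 14.3% of the list, beside 38.7, 48.9 and 39.5% of all genes. DAPK1, a calmodulin-regulated kinase linked to cell death, stood at 25.04, 23.2 and 23.5 CPM in CT, 1.96, 2.46 and 5.04 in MC26 and 2.50, 1.85 and 3.16 in M1B26. Every transformed library was far below every CT library, and the transformed lines overlapped. DAPK1 fell in both lines against CT, with log2 fold changes of -2.92 for MC26 (SE 0.28, edgeR adjusted p = 2.15e-05) and -3.25 for M1B26 (SE 0.29, edgeR adjusted p = 7.51e-06). DAPK3, a kinase related to it, rose in both lines against CT, by 0.68 for MC26 (SE 0.14, edgeR adjusted p = 0.00275) and 0.51 for M1B26 (SE 0.14, edgeR adjusted p = 0.0103).

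Of 15 tested genes of calcium entry, stores and pumps, 9 passed in M1B26 against CT (1 higher, 8 lower) and 9 against MC26 (1 higher, 8 lower). Of the same 15 genes, 9 passed in MC26 against CT (3 higher, 6 lower). Each count is 60.0% of the list, where 48.9, 39.5 and 38.7% of all genes passed in these comparisons. Of all genes, 25.2, 21.2 and 18.8% were higher and 23.7, 18.4 and 19.9% lower, in the same order. ATP2B4, a calcium pump of the plasma membrane, stood at 98.5, 104 and 96.4 CPM in CT, 42.5, 44.4 and 37.1 in MC26 and 30.95, 29.3 and 38.0 in M1B26. It fell in both lines against CT, with log2 fold changes of -1.27 for MC26 (SE 0.10, edgeR adjusted p = 5.89e-06) and -1.60 for M1B26 (SE 0.10, edgeR adjusted p = 9.37e-07). RYR2, a calcium release channel of internal stores, had 3.36 ± 0.189 CPM for CT, 2.02 ± 0.209 for MC26 and 0.807 ± 0.185 for M1B26 (SD, n = 3 each), and fell in both against CT, with log2 fold changes of -0.74 for MC26 (SE 0.17, edgeR adjusted p = 0.00616) and -2.05 for M1B26 (SE 0.18, edgeR adjusted p = 8.84e-06).

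Calmodulin-binding effectors passed in 6 of 9 cases in MC26 against CT (3 higher, 3 lower), 6 of 9 in M1B26 against CT (1 higher, 5 lower) and 7 of 9 between the transformed lines (3 higher, 4 lower), beside 38.7, 48.9 and 39.5% of all genes. IQGAP2, a scaffold protein that binds calmodulin, rose in MC26 against CT from 4.88 ± 0.484 to 10.3 ± 2.003 CPM, by 1.09 (SE 0.26, edgeR adjusted p = 0.00663), and stood at 3.98 ± 1.76 CPM in M1B26, lower than in MC26 with a log2 fold change of -1.36 (SE 0.26, edgeR adjusted p = 0.00207). MARCKS, a membrane protein displaced by calmodulin, fell in both lines against CT, with log2 fold changes of -1.04 for MC26 (SE 0.11, edgeR adjusted p = 3.07e-05) and -0.39 for M1B26 (SE 0.10, edgeR adjusted p = 0.0095).

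Substrates and downstream factors passed in 8 of 16 cases in MC26 against CT (3 higher, 5 lower), 9 of 16 in M1B26 against CT (1 higher, 8 lower) and 7 of 16 between the transformed lines (2 higher, 5 lower), beside 38.7, 48.9 and 39.5% of all genes. PRKAA2, a catalytic subunit of AMP-activated protein kinase and hence a target of CaMKK2, stood at 5.33, 7.38 and 5.34 CPM in CT, 0.647, 0.889 and 0.965 in MC26 and 2.19, 2.44 and 2.83 in M1B26. Its lines did not overlap, and their order was that of CAMK2B. PRKAA2 fell in both lines against CT, with log2 fold changes of -2.83 for MC26 (SE 0.21, edgeR adjusted p = 3.06e-06) and -1.26 for M1B26 (SE 0.18, edgeR adjusted p = 0.000227). HDAC5, a histone deacetylase exported from the nucleus on phosphorylation by CaM kinases, stood at 8.52, 5.98 and 7.80 CPM in CT, 2.64, 3.22 and 6.21 in MC26 and 11.3, 12.1 and 14.1 in M1B26. It was higher in M1B26 than in MC26 by 1.63 (SE 0.26, edgeR adjusted p = 0.000734), in 3 of 3 libraries. The means of HDAC5 had the order of CAMK1 and CAMK4, but its CT and MC26 libraries overlapped. Its log2 fold changes against CT, -0.90 in MC26 and 0.74 in M1B26 (edgeR adjusted p = 0.0191 and 0.0292), each lost the threshold without certain single libraries. In MC26 these were CT replicate 1 (-0.79), MC26 replicate 1 (-0.67) and MC26 replicate 2 (-0.76), and in M1B26 they were CT replicates 2 (0.62) and 3 (0.77) and M1B26 replicates 2 (0.77) and 3 (0.64).

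**Figure D5:**
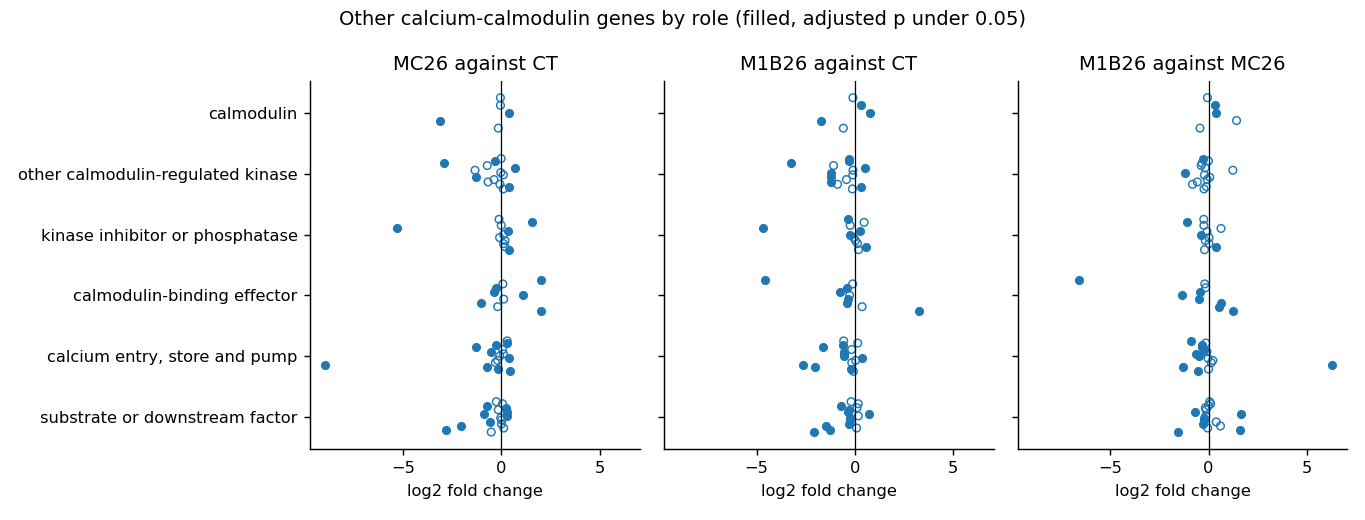
Log2 fold change (edgeR) of the 70 tested genes of the other calcium-calmodulin lists, 1 row of points per role, in the 3 comparisons. Filled points passed an adjusted p of 0.05 (34, 40 and 30 genes), and open points did not. In M1B26 against CT 31 of the 40 filled points lie below 0, where 25.2% of all genes tested were higher and 23.7% lower. The points farthest from 0 are RYR1, ADCY1 and PPM1E, low genes with at least 1 line at or under 3 counts in every library, whose fitted values are no measure of size.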

How the data were processed

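Poly-A RNA of the 9 samples was sequenced in paired-end mode. Per the labels and the study's methods, the authors used STAR 2.7.3a on GRCh38 (GENCODE v33) for alignment, and give Salmon 1.1.0, run on protein-coding genes only, as the quantification step. The deposited values are raw counts per gene symbol that also cover non-coding genes such as SNHG15, so it is unclear whether Salmon made them. Strandedness and handling of multimapping reads are not given in the sources used here. Groups and replicate numbers were read from sample titles. No column of other samples was found.

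Differences between lines were tested with edgeR 4.0.16 in R 4.3.3 (filterByExpr, minimum count 10, 15717 genes kept, TMM factors, glmQLFit with line as its only term, glmQLFTest, 2-sided, Benjamini-Hochberg adjustment over all genes tested, threshold 0.05). The biological coefficient of variation was 10.4%. SE is the absolute log2 fold change divided by the square root of F, and 95% intervals are normal intervals from that SE. CPM used TMM-scaled library sizes, and CPM per kb the merged exon length of GENCODE v44, in which 36923 symbols had a unique gene. The detection floor was 3 counts in a library, which covers counting error only. Promoters are from RefSeq (GRCh38.p14).

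The members, the lists and the rule for named genes were chosen with earlier results of these data known. The rule took all 8 kinase genes and a few partners, among them CALM2, CALM3 and CAMK2N1, and 1 gene it took is not reported here. In each comparison it added the 3 highest and 3 lowest called genes of the other lists with a mean of at least 1 CPM. It also took the 3 nearest tested genes on each side of CAMK2B, tested genes overlapping a kinase gene, and the 6 genes most correlated with CAMK2B. Tried besides were total counts and RLE factors for scaling, DESeq2 1.42.0, a minimum mean of 50 counts, an unfiltered table, a fit of only the 6 libraries compared, a replicate block, and fits without 1 of the 9 libraries.

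Muscle, leukocyte and luminal hormone receptor marker lists were also looked up. Their summed levels were at most 0.260, 0.0857 and 0.462 CPM in any library.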

Additional observations from a re-analysis of the deposited data

Results flagged for a closer look

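Of 17 genes whose values in the transformed lines were compared, 7 differed between MC26 and M1B26 by the direct edgeR test, which is the test of the difference between their effects against the shared CT libraries. Over all genes 39.5% differed in that test, so this count is near the background. CAMK2B and genes named only for the size of their change were left out of this count, while CALM3 and CAMK2N1, which were named whatever their values and also for the size of their change, were kept in it. CAMK1 was higher in M1B26 by 1.06 and CAMK4 by 1.54 on the log2 scale. CALM2 was higher in M1B26 by 0.34 and CALM3 by 0.39. CAMK2N1 was lower in M1B26, with a log2 difference of -1.09. Of the neighbours of CAMK2B, YKT6 was lower in M1B26 (-0.32) and TMED4, which encodes a cargo receptor of the early secretory pathway, was higher (0.20). No group held 4 or more libraries, so single libraries were not tested as outliers.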

How the results depend on the processing

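The count of kinase genes called, 3 and 4 for MC26 and M1B26 against CT and 3 between the transformed lines, was between 3 and 4 in the alternatives on all libraries. Leaving out 1 library gave 2 to 4, 2 to 5 and 3 calls, the lowest in M1B26 against CT without M1B26 replicate 2. For the other calcium-calmodulin genes the counts of 34, 40 and 30 became 27 to 35, 30 to 44 and 22 to 34 without 1 library.

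Whether the replicate numbers of the titles pair the libraries could not be settled, since all correlations of their deviations were weak. Between CT and the transformed lines these were -0.114 to 0.106 for the same number and -0.129 to 0.119 for different numbers. There, not every library correlated best with its own number. Between MC26 and M1B26 they were 0.081, 0.0418 and 0.136 for the same number, against -0.114 to 0.041 for different numbers. With the replicate block the kinase counts were 4, 4 and 3 and the counts for the other genes 33, 42 and 30.

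Signs turned where values were near 0 or rested on 1 library. With total counts CAMK2G became -0.02234 in MC26 against CT and -0.01183 in M1B26 against CT, and YKT6 -0.06306 in M1B26 against CT. In M1B26 against MC26, leaving out 1 library gave CAMK2G -0.001295 (MC26 replicate 2) and -0.01118 (M1B26 replicate 1), in a range up to 0.06354, CAMK1D -0.1659 (M1B26 replicate 3) to 0.5456, DAPK1 -0.5769 to 0.1942 (MC26 replicate 3) and POLD2 -0.0723 to 0.02177 (M1B26 replicate 3). NUDCD3 became 0.002765 with no filter and 0.005966, 0.009657 and 0.005592 without MC26 replicate 1, MC26 replicate 3 and M1B26 replicate 1, against -0.02589 at the lowest. CALM2 in MC26 against CT became 0.04479 without CT replicate 2, with -0.08722 at the lowest. The cause was not tested. Depth limits CAMK2A and, in MC26, CAMK2B, which rests on 42 counts there.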
